A study of Caenorhabditis elegans with 12 samples.

Results

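The lys genes of Caenorhabditis elegans encode lysozymes, enzymes that break down the peptidoglycan of bacterial cell walls. The 10 genes described here, lys-1 to lys-10, were taken by name, each through its 1 probe set with a single gene symbol, out of 25478 genes represented on the array. RNA came from pooled whole wild-type N2 larvae at the L4 stage, raised from the first larval stage at 20 °C on nematode growth medium (NGM) with Escherichia coli OP50 as food. The medium of the 3 treated groups held 1 of 3 fatty acids at 1000 µM, namely LNA (linoleic acid), GLA (gamma-linolenic acid) and DGLA (dihomo-gamma-linolenic acid), and the control medium held the ethanol vehicle alone at the same 1% v/v. The worm converts LNA to GLA by adding a double bond, and GLA to DGLA by lengthening its chain. Each group had 3 biological replicates with 1 array each, so 12 arrays were compared.

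Lysozymes of the lys family resemble those of amoebae and other protists, and several are made in the intestine of the worm, which both digests bacteria and meets them as pathogens. A separate family, the invertebrate-type lysozymes (ilys), is encoded elsewhere in the genome. Expression of lys genes in C. elegans is known to respond to bacterial infection and to depend on the p38 MAP kinase, DBL-1 (TGF-beta) and insulin pathways, and lys-7 is a known target of the insulin pathway's transcription factor DAF-16. Some lys genes lie in tandem. In the WBcel235 gene table lys-1, lys-2 and lys-3 (Y22F5A.4, Y22F5A.5 and Y22F5A.6) are consecutive protein-coding genes on chromosome V, and lys-4, lys-5 and lys-6 (F58B3.1, F58B3.2 and F58B3.3) are consecutive on chromosome IV. Whether probes of tandem relatives share signal was not tested.

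Values are log2 signals made with RMA (robust multi-array average). Array medians lay between 4.47 and 4.56. Arrays LNA 2 and LNA 3 stood apart from the other 10 on the first principal component, which held 23.1% of the variance, at 41.95 and 35.68 against -18.02 to 3.64. All 47 measured markers of 8 tissue and stage lists (intestine, pharynx, muscle, hypodermis, neurons, germline, sperm, adult) had group means above the lower quartile of all values (2.96). In limma's test none of the 47 passed in any comparison, where 0.058% to 0.498% of all probe sets did. At an unadjusted p under 0.05 with LNA were 3 of 9 intestinal, 3 of 6 pharynx and 2 of 5 muscle markers. So were 2 of 6 sperm, 1 of 5 hypodermis and 1 of 6 adult markers, and 0 of 5 for neurons and for germline. Of all probe sets 9.6% were. With GLA 1 sperm marker was (5.46% of all probe sets), and with DGLA 1 intestinal marker (5.69%). The 9 intestinal markers had a mean log2 signal of 9.20 to 9.27 on the control arrays, 9.30 to 9.43 with LNA, 9.22 to 9.28 with GLA and 9.24 to 9.37 with DGLA, so the LNA arrays were all higher than the control arrays. Body wall muscle markers were lowest on LNA 2 (10.2) and LNA 3 (10.5), against 10.78 to 11.01 on the other arrays, and so were the pharynx markers (6.97 and 7.19, against 7.40 to 7.59). Their part in the lysozyme results was not tested. In whole-worm RNA, fewer cells of a type and less RNA per cell cannot be told apart.

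At the threshold used, an adjusted p under 0.05, 3 of the 10 genes passed against control with at least 1 acid. The gene lys-4 rose with each of the 3 acids, lys-2 fell with DGLA, and lys-7 fell with GLA. Each call comes from limma's moderated test with Benjamini-Hochberg adjustment over all 29317 probe sets. With LNA 1 of the 10 lys genes was called, where 0.058% of all probe sets were. With GLA 2 were called, against 0.229% of all probe sets, and with DGLA 2, against 0.498%. The 3 comparisons share the same 3 control arrays. Over all 10 genes the median log2 difference from control was 0.13 with LNA, -0.07 with GLA and -0.04 with DGLA, beside 0.02, -0.0023 and -0.0055 over all probe sets.

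**Figure D1:**
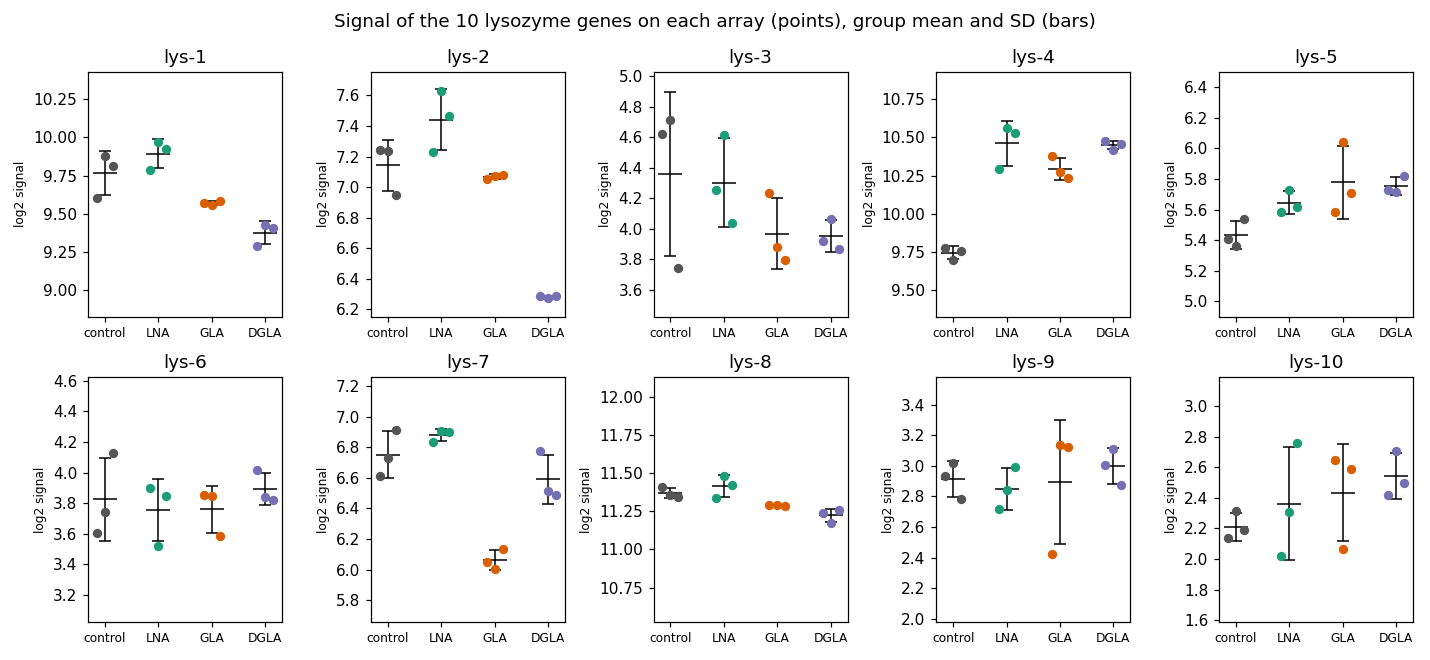
Log2 signal (y axis, 1.6 log2 units in every panel) of each lysozyme gene on the 3 arrays of each group (points), with the group mean and SD (bars). The 9 acid-treated arrays of lys-4 lie above the 3 control arrays, the 3 DGLA arrays of lys-2 lie below the other 9, and the 3 GLA arrays of lys-7 lie below the other 9.

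The gene that rose with every acid was lys-4, the first gene of the chromosome IV group. Its log2 signal was 9.78, 9.70 and 9.76 on the control arrays, 10.29, 10.56 and 10.53 with LNA, 10.38, 10.27 and 10.24 with GLA, and 10.47, 10.42 and 10.46 with DGLA. All 9 treated arrays were higher than all 3 control arrays, which lay within 0.1 of each other. The mean rose from 9.74 ± 0.0426 (SD, n = 3) to 10.46 ± 0.146 with LNA, 10.29 ± 0.0722 with GLA and 10.45 ± 0.0276 with DGLA. That was 1.64-fold with LNA (adjusted p = 0.0186 in limma's test), 1.46-fold with GLA (adjusted p = 0.0332) and 1.63-fold with DGLA (adjusted p = 0.00325). Between acids no difference in lys-4 passed. DGLA minus LNA was -0.01 on the log2 scale (95% interval -0.21 to 0.19), GLA minus LNA was -0.17 (-0.37 to 0.03) and DGLA minus GLA was 0.16 (-0.04 to 0.36).

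The rise of lys-4 with DGLA passed whichever 1 of the 6 arrays compared was left out. With LNA the adjusted p became 0.0856 without control 1, 0.0922 without control 2, 0.0681 without control 3, 0.0963 without LNA 2 and 0.078 without LNA 3. It was 0.221 without both LNA 2 and LNA 3, when the log2 difference, resting on the single array LNA 1 and assumed to vary like the other groups, was 0.55 in place of 0.72. A fit that held just the 6 arrays compared gave 0.41, and called 0 of all 29317 probe sets. Without LNA 1 the adjusted p was 0.000949 in limma's test, in a fit that called 895 of all probe sets in place of 17. With GLA the call ended without any 1 of the 6 arrays compared (adjusted p 0.105 to 0.206), and on those 6 arrays alone (0.118), while the difference stayed between 0.51 and 0.58.

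Its tandem neighbours lys-5 and lys-6 were not called against control, and no test compared the genes with each other. For lys-5 the control arrays gave 5.40, 5.36 and 5.54, the LNA arrays 5.59, 5.73 and 5.62, the GLA arrays 5.58, 6.04 and 5.71, and the DGLA arrays 5.73, 5.72 and 5.82. No treated array of lys-5 overlapped the control arrays. The differences of 0.21, 0.34 and 0.32 on the log2 scale did not pass (limma's adjusted p of 0.572, 0.743 and 0.669). For lys-6 the groups overlapped throughout, with means of 3.82 ± 0.272 in control, 3.75 ± 0.205 with LNA, 3.76 ± 0.153 with GLA and 3.89 ± 0.106 with DGLA, all below the median of all values (4.52). Over the 12 arrays lys-4 correlated with lys-5 at r = 0.65 and with lys-6 at r = -0.06, a description of arrays that share groups and normalisation.

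The steepest fall of the family was that of lys-2, the middle gene of the chromosome V group, with DGLA. Its log2 signal was 7.24, 7.24 and 6.95 on the control arrays, 7.23, 7.63 and 7.46 with LNA, 7.05, 7.07 and 7.08 with GLA, and 6.29, 6.28 and 6.29 with DGLA. The 3 DGLA arrays agreed closely (SD 0.00586) and lay below all 9 others, while the GLA arrays lay within the range of the control arrays. With DGLA the mean fell from 7.14 ± 0.168 to 6.28, 1.81-fold lower (log2 difference -0.86, SE 0.113, adjusted p = 0.00377 in limma's test). Neither GLA (-0.07, 95% interval -0.32 to 0.17) nor LNA (0.30, 0.05 to 0.55, adjusted p = 0.483) passed against control.

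The acids themselves differed for lys-2. Signal with DGLA was 2.23-fold lower than with LNA (adjusted p = 0.000695 in limma's test) and 1.72-fold lower than with GLA (adjusted p = 0.0355). In the comparison of DGLA with LNA 1 of the 10 lys genes passed, where 0.317% of all probe sets did, and in that of DGLA with GLA 1 passed, where 0.075% did. The falls against control and against LNA each passed whichever 1 of the 6 arrays compared was left out. The fall against LNA was -0.95 without LNA 2 and LNA 3 together, a value that rests on the single array LNA 1. The difference from GLA did not pass without any 1 of its 6 arrays (adjusted p 0.127 to 0.208), with the log2 difference between -0.79 and -0.78.

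On either side of lys-2 lie lys-1 and lys-3. Overexpression of lys-1 in C. elegans is known to raise resistance to Serratia marcescens. The log2 signal of lys-1 was 9.61, 9.88 and 9.82 in control, 9.79, 9.97 and 9.92 with LNA, 9.57, 9.56 and 9.58 with GLA, and 9.29, 9.43 and 9.41 with DGLA. The DGLA arrays were the lowest, the GLA arrays came next, and neither overlapped the control arrays. Against control the differences were -0.39 with DGLA (95% interval -0.60 to -0.18, adjusted p = 0.175) and -0.20 with GLA (-0.40 to 0.01, adjusted p = 0.943) in limma's test. The difference of DGLA from LNA was larger, -0.52 (-0.73 to -0.31), and just missed the threshold (adjusted p = 0.0508). Leaving out LNA 1 gave an adjusted p of 0.00845 for that difference, in a fit that called 1359 of all 29317 probe sets in place of 93, and leaving out LNA 2 together with LNA 3 gave 0.406.

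For lys-3 the spread within control was wide. Control arrays gave 4.62, 4.71 and 3.74, and every treated array lay between 3.79 and 4.61, so all groups overlapped. Across the 12 arrays lys-1 and lys-2 correlated at r = 0.87, lys-2 and lys-3 at r = 0.53 and lys-1 and lys-3 at r = 0.46. Arrays LNA 2 and LNA 3 were the highest of all 12 for both lys-1 and lys-2.

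**Figure D2:**
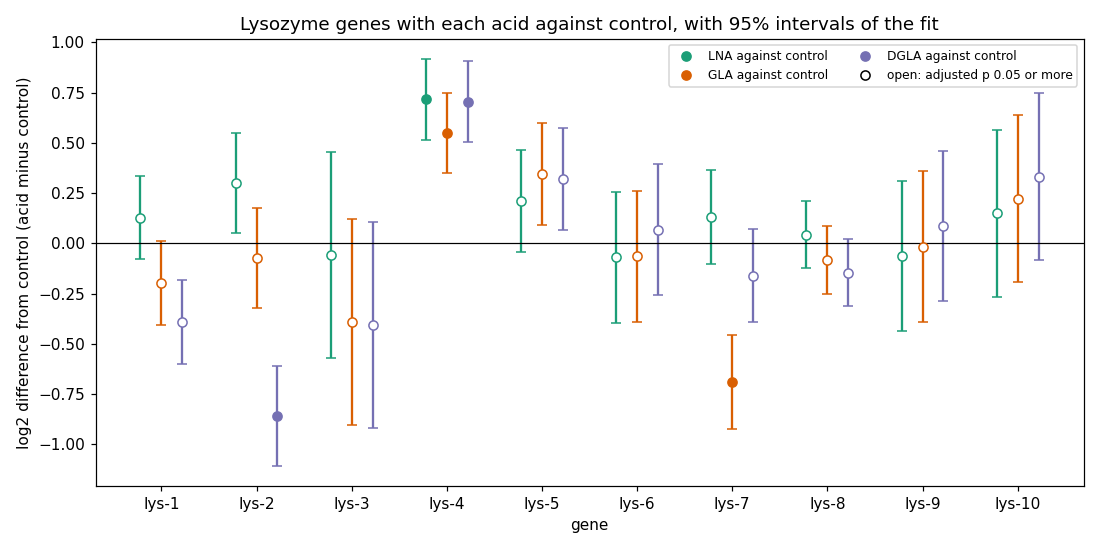
Log2 difference of each acid from control (y axis) for the 10 lysozyme genes (x axis), with the 95% interval of the fit as bars and filled points where the adjusted p was under 0.05. The 5 filled points are the 3 for lys-4 at 0.55 to 0.72, lys-2 with DGLA at -0.86 and lys-7 with GLA at -0.69.

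The third called gene, lys-7 (C02A12.4), lies elsewhere on chromosome V and is known in C. elegans as a DAF-16 target used in defence against several pathogens. Its log2 signal was 6.61, 6.73 and 6.91 in control, 6.84, 6.91 and 6.90 with LNA, 6.05, 6.00 and 6.13 with GLA, and 6.77, 6.51 and 6.49 with DGLA. The GLA arrays lay below all 9 others, and the DGLA arrays overlapped the control arrays. With GLA the mean fell from 6.75 ± 0.153 to 6.06 ± 0.065, 1.61-fold lower (adjusted p = 0.0215 in limma's test). With DGLA the difference from control was -0.16 (95% interval -0.39 to 0.07) and with LNA 0.13 (-0.10 to 0.36).

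Between acids, lys-7 signal was 1.77-fold lower with GLA than with LNA (adjusted p = 0.0201 in limma's test). This was the 1 lys gene called in that comparison, where 0.0614% of all probe sets were. DGLA exceeded GLA by 0.53 on the log2 scale (0.30 to 0.76) without passing (adjusted p = 0.217), so the fall with GLA was not shown to differ from the value with DGLA. The call against control ended without control 2 (adjusted p = 0.0982), control 3 (0.0892), GLA 1 (0.118), GLA 2 (0.127) or GLA 3 (0.0755), and was 0.0613 without LNA 2 and LNA 3 and 0.125 on the 6 arrays alone. The call against LNA ended without any 1 GLA array (0.0796 to 0.165), LNA 2 (0.0984) or LNA 3 (0.0992), and was 0.214 without LNA 2 and LNA 3 together and 0.138 on the 6 arrays alone. Without LNA 1 the call against LNA held (adjusted p = 0.00279 in limma's test), in a fit that called 961 of all 29317 probe sets in place of 18. The difference of GLA from LNA remained between -0.86 and -0.79 with any 1 array left out.

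**Figure D3:**
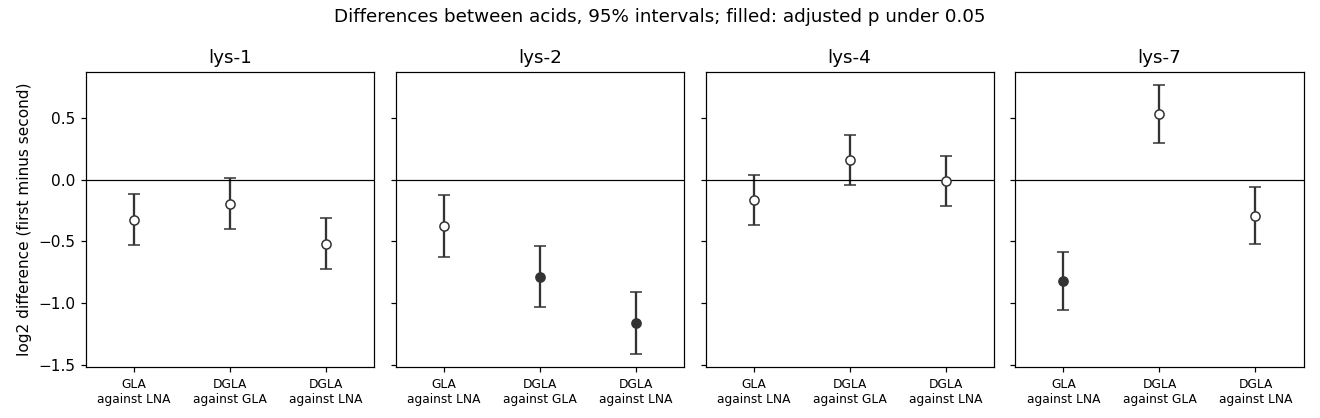
Log2 differences between pairs of acids (y axis, first minus second) for lys-1, lys-2, lys-4 and lys-7, with 95% intervals and filled points where the adjusted p was under 0.05. Both comparisons of DGLA are below 0 and filled for lys-2, GLA against LNA is filled for lys-7, and no comparison is filled for lys-4.

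The other genes of the family did not pass in any comparison. For lys-8 (C17G10.5), a target of DBL-1 signalling in C. elegans, the groups were close but ordered, with 11.41, 11.36 and 11.34 in control, 11.34, 11.48 and 11.42 with LNA, 11.29, 11.29 and 11.28 with GLA, and 11.24, 11.17 and 11.26 with DGLA. The GLA and DGLA arrays both lay below the control arrays, by 0.08 and 0.15 on the log2 scale (adjusted p of 0.999 and 0.941 in limma's test). The signals of lys-9 (means 2.85 to 3.00) and lys-10 (2.21 to 2.54) were near or below the lower quartile of all values (2.96). Their 95% intervals against control reached from -0.44 to 0.46 for lys-9 and from -0.27 to 0.75 for lys-10.

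From low to high, the group means ran DGLA, GLA, control, LNA for lys-1, lys-2 and lys-8 alike. For lys-7 the order was GLA, DGLA, control, LNA, and for lys-4 it was control, GLA, DGLA, LNA. For lys-5 it was control, LNA, DGLA, GLA. Between neighbours in these orders, limma's test passed for DGLA and GLA in lys-2 (adjusted p = 0.0355) and for control and GLA in lys-4 (0.0332), and for no other neighbouring pair. Arrays of the acid and the control did not overlap in 2 of the 10 genes with LNA (12% of all probe sets), 5 with GLA (11.7%) and 6 with DGLA (10.8%). With DGLA these were lys-1, lys-2 and lys-8, which were lower, and lys-4, lys-5 and lys-10, which were higher.

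Genes of the surrounding defence system were read from 6 lists, and of their 65 measured genes 0 passed against control with any acid in limma's test (7 with LNA, 1 with GLA and 2 with DGLA at an unadjusted p under 0.05, where 9.6%, 5.46% and 5.69% of all probe sets were). Among the 6 invertebrate-type lysozymes ilys-6 had the smallest adjusted p against control, 0.524 in limma's test, with 0.38 on the log2 scale with LNA. The 28 saposin-like and defensin-like genes, which encode small pore-forming or antimicrobial proteins, had a median of 0.06 with LNA, -0.03 with GLA and -0.10 with DGLA, beside 0.02, -0.0023 and -0.0055 over all probe sets. Their member with the smallest adjusted p against control was spp-23, at 0.46 with LNA (adjusted p = 0.339 in limma's test) and -0.15 with DGLA. For spp-23 DGLA minus LNA was -0.61 (adjusted p = 0.0633). In that comparison 8 of the 28 had an unadjusted p under 0.05, where 11.8% of all probe sets did.

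Upstream of the lysozymes, 6 genes of the p38 pathway were measured, and sek-1, its MAP kinase kinase, was at 0.31 with LNA (adjusted p = 0.397). The 9 genes of the DBL-1 pathway were led by sma-9, a cofactor of its Smads (-0.53 with LNA, adjusted p = 0.519), and the 7 of the insulin pathway by daf-2, the insulin receptor (-0.86 with LNA, adjusted p = 0.502). Both rest on the arrays that stood apart. Without LNA 2 and LNA 3 the differences turned to 0.17 for sma-9 and 0.27 for daf-2, while without LNA 1 both passed (adjusted p = 0.00702 and 0.00159), as did 895 of all 29317 probe sets. The log2 difference of daf-16 itself from control was -0.03 with LNA, -0.0065 with GLA and 0.04 with DGLA. Among 9 intestinal and lysosomal regulators elt-2, the GATA factor of the intestine, was at 0.27 with LNA (adjusted p = 0.505), 0.12 with GLA and 0.0076 with DGLA. All of these are transcript levels, and the activity of the pathways and factors was not measured.

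The genes with the pattern most like each called lysozyme were found by Pearson's r over the 12 arrays, a description, since the arrays share groups and normalisation. Because they were picked for following a called gene on these same arrays, similar differences between groups follow from that choice. Their test results are given as description and are no separate support for the lysozyme results. For lys-2 they were cysl-2, a cysteine synthase family gene (r = 0.988), alh-9, an aldehyde dehydrogenase (0.960), and fipr-21 (0.960). Of these cysl-2 also fell with DGLA, from 6.92 to 6.25 (log2 difference -0.67, adjusted p = 0.00865 in limma's test), and was lower with DGLA than with GLA (-0.65, adjusted p = 0.0403) or LNA (-1.05, adjusted p = 0.000584). Its fall against control missed the threshold without control 1, control 2, DGLA 2 or DGLA 3 (0.0512 to 0.0546) and on the 6 arrays alone (0.0536). Its difference from GLA did so without any 1 of the 6 arrays (0.105 to 0.248). That difference also missed it on the 6 arrays alone (0.109) and with the replicate number as a block (0.121). For alh-9 the difference of DGLA from control was -0.31 (adjusted p = 0.38 in limma's test) and from GLA -0.31 (adjusted p = 0.737). From LNA it was -0.53, which passed (adjusted p = 0.034). That call ended without any 1 DGLA array, LNA 2 or LNA 3 (0.102 to 0.13). It also ended with cyclic loess (0.0523), on the 6 arrays alone (0.271) and with the replicate number as a block (0.0801). Without LNA 2 and LNA 3 together the difference was -0.46, which rests on the single array LNA 1. For fipr-21 the differences of DGLA from control, GLA and LNA were -0.32, -0.29 and -0.44 (adjusted p of 0.389, 0.856 and 0.101 in limma's test).

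For lys-4 the closest were B0272.3 (r = 0.945), the glutathione peroxidase gene gpx-2 (0.944) and the ceramide synthase gene hyl-2 (0.940). All 3 were higher than control on every treated array without passing, with B0272.3 at 0.48, 0.44 and 0.46 for LNA, GLA and DGLA (adjusted p of 0.213, 0.202 and 0.0884 in limma's test). For lys-7 they were asp-12, an aspartyl protease gene (r = 0.927), ddo-3, a D-aspartate oxidase gene (0.925), and the collagen gene col-49 (0.918). With GLA asp-12 fell by 0.79 on the log2 scale (adjusted p = 0.0366 in limma's test). That call ended without any 1 of the 6 arrays (0.0802 to 0.207), on the 6 arrays alone (0.0772) and with the replicate block (0.0662). Within groups, after the group means were taken away, r was 0.77 to 0.89 for lys-2 with its 3 neighbours, 0.50 to 0.87 for lys-4 with its 3 and 0.51 to 0.89 for lys-7 with its 3. These within-group values are also a part of the r by which the genes were picked.

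**Figure D4:**
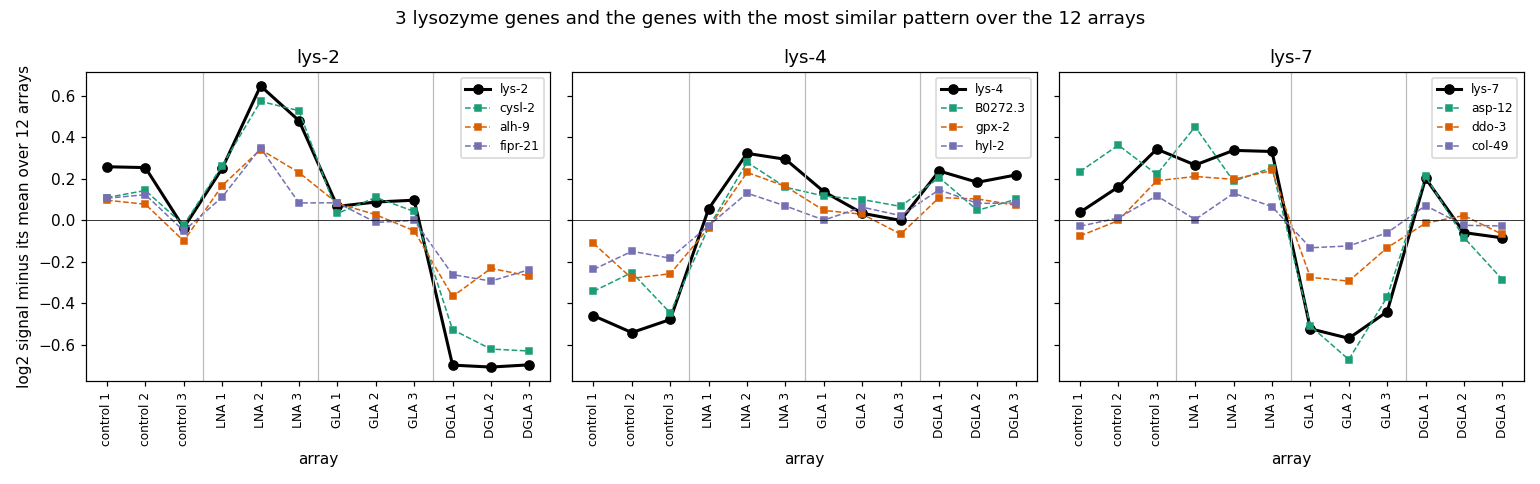
Log2 signal minus its mean over the 12 arrays (y axis) for lys-2, lys-4 and lys-7 (black) and the 3 genes with the highest Pearson's r to each (dashed), by array (x axis, 3 per group, with lines that only join the points). cysl-2 follows lys-2 down to the 3 DGLA arrays (r = 0.988), and lys-4 is lowest on the 3 control arrays.

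The 8 called differences were set beside the same tests under other settings. Those of lys-2 with DGLA against control and against LNA, and of lys-4 with DGLA against control, passed in every one of the 14 settings run for each. The other 5 passed in some settings and not in others.

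**Figure D5:**
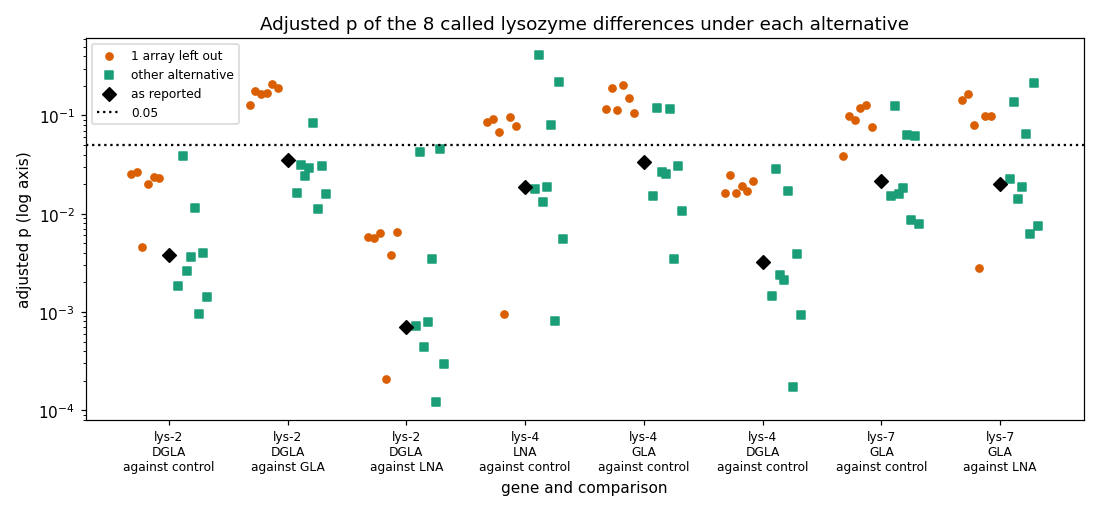
Adjusted p (log axis) of the 8 called lysozyme differences (x axis) as reported (diamonds), with 1 array left out (circles) and under the other alternatives (squares), with 0.05 as a dotted line. All points of lys-2 with DGLA against control, lys-2 with DGLA against LNA and lys-4 with DGLA against control lie under the line.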

How the data were processed

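RNA of 12 samples, 3 in each of 4 groups by the labels, was hybridised as biotin-labelled cRNA to an Affymetrix array. The deposited values are log2 signals per probe set that the authors made with RMA, per the submitters' processing notes, which also name the Transcriptome Analysis Console and the Affymetrix Expression Console. The genome build was not given in the sources used here, nor were tool versions and options. That the scale is log2 was read from the values.

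All 29317 probe sets were fitted on all 12 arrays with limma 3.58.1 (lmFit, eBayes, defaults) in R 4.3.3, with group as the only term. The total degrees of freedom were 11.6, and the median SE of a log2 difference was 0.136. The number of arrays limits the precision. All 6 comparisons came from that fit, two-sided, adjusted by Benjamini-Hochberg. A gene was read from the brightest probe set that carries its symbol alone, and all 10 lys genes had 1 such probe set. Their names matched the WBcel235 gene table, which served for names and neighbours only. Sequences were not used here.

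Members and lists were chosen with earlier results of these data known. All lys genes are named, with 3 pattern neighbours per called lys gene. From each other list the called members (at most 4) are named, or else the member with the smallest adjusted p against control. daf-16 was added after its values were seen. The genes nsy-1, dkf-2 and spp-20 were not analysed here. Alternatives were cyclic loess, quantile normalisation, a filter on dim probe sets, a trended robust variance, the 6 arrays alone, a replicate block, probe sets with a symbol only, and each array left out. An array was left out only for the comparisons that held its group. Leaving out LNA 2 and LNA 3 was chosen after seeing the data. The fit was also run on simulated data with independent noise and changes planted in DGLA alone. That run held no arrays that stood apart, so it does not cover the setting of LNA 2 and LNA 3.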

Additional observations from a re-analysis of the deposited data

Results flagged for a closer look

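In 3 cases the effects of a pair of acids against control differed by a test of the difference itself. For lys-2, DGLA minus GLA was -0.78 on the log2 scale (adjusted p = 0.0355 in limma's test) and DGLA minus LNA was -1.16 (adjusted p = 0.000695), with all 3 DGLA arrays below all arrays of the other acid in each. For lys-7, GLA minus LNA was -0.82 (adjusted p = 0.0201), with all 3 GLA arrays below all LNA arrays. The 3 were not equally stable. With each of the 6 arrays compared left out in turn, DGLA minus LNA for lys-2 passed 6 times. DGLA minus GLA for lys-2 passed 0 times and GLA minus LNA for lys-7 passed 1 time. That 1 pass was without LNA 1, in a fit that called 961 of all 29317 probe sets in place of 18.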

How the results depend on the processing

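The count of lys genes called with DGLA against control was 2 (lys-2 and lys-4) in every setting but a trended robust variance. There lys-1 passed too (adjusted p = 0.0398 in limma's test), and 192 of all 29317 probe sets were called in place of 146. With LNA against control the count of 1 became 0 on the 6 arrays alone, where 0 of all 29317 probe sets were called. It became 0 with the replicate block too, where 6 of all probe sets were called in place of 17. With 1 array left out it was 0 to 1 (5 to 895 of all probe sets). With GLA against control the count of 2 became 0 on the 6 arrays alone and with the block. There 27 and 55 of all probe sets were called, in place of 67. With 1 array left out it was 0 to 1 (24 to 54 of all probe sets). For GLA against LNA the count of 1 became 0 on the 6 arrays alone and with the block. There 3 and 8 of all probe sets were called, in place of 18. With 1 array left out it was 0 to 2, and the 2 came without LNA 1, where 961 of all probe sets were called. For DGLA against GLA the count of 1 became 0 with the block, where 11 of all probe sets were called in place of 22. It was 0 whichever 1 of the 6 arrays compared was left out (8 to 11 of all probe sets). For DGLA against LNA the count of 1 became 2 without dim probe sets, with a trended robust variance and with symbol-bearing probe sets only, where lys-1 passed too. Those settings called 155 of 15190, 175 of 29317 and 102 of 26192 probe sets, in place of 93 of 29317. With 1 array left out the count was 1 to 2, and the 2 came without LNA 1, where 1359 of all probe sets were called. Leaving out an array or fitting 6 arrays alone leaves fewer samples for the spread. Without LNA 1, however, the probe sets called for LNA against control rose from 17 to 895. The cause of the changes was not tested in any setting.

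Deviations of same-numbered arrays of different groups correlated weakly (3 of 18 correlations over 0.1, range -0.133 to 0.216). They were 0.157, 0.069 and 0.216 for LNA with control, and -0.115, -0.133 and -0.00744 for DGLA with LNA. Of the 12 arrays 5 were closest to their own number. Numbers were not taken as pairs, and whether they mark a batch is not known from the labels. With the replicate block adjusted p was 0.0808, 0.116 and 0.0172 for lys-4 with LNA, GLA and DGLA, 0.0115, 0.0829 and 0.00346 for lys-2 with DGLA against control, GLA and LNA, and 0.0637 and 0.0652 for lys-7 with GLA against control and LNA. No called difference changed direction in any setting. In 43 of 816 gene-by-setting values an uncalled difference changed sign, in 7 genes.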
